A study of Mus musculus with 6 samples.

Results

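The genes described here are 10 mouse keratins, chosen by name as the basal, simple-epithelial and stress keratins of squamous epithelium and its tumors, and matched to the arrays by their Ensembl identifiers. Of the 10, 9 had a value among the 17204 genes of the table, and Krt16 (ENSMUSG00000053797) was not analysed here. The 9 were the basal keratins Krt5 (ENSMUSG00000061527), Krt14 (ENSMUSG00000045545) and Krt15 (ENSMUSG00000054146), the simple-epithelial keratins Krt8 (ENSMUSG00000049382), Krt18 (ENSMUSG00000023043), Krt19 (ENSMUSG00000020911) and Krt7 (ENSMUSG00000023039), the stress keratin Krt17 (ENSMUSG00000035557) and the mucosal keratin Krt13 (ENSMUSG00000044041). The rule that names them uses no measured value, but it was written with earlier results of these data known.

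Expression was measured in mouse skin squamous cell carcinoma (SCC) cells, with 3 arrays of SCC FAK-wt cells and 3 arrays of SCC FAK-/- cells, 1 array per numbered replicate. Both lines descend from tumors induced chemically in K14CreER FAKflox/flox mice of the FVB strain, in which focal adhesion kinase (FAK), a tyrosine kinase of cell-matrix adhesions, was deleted from the isolated cells with 4-hydroxytamoxifen. SCC FAK-/- is 1 clone of these cells, and SCC FAK-wt is the same clone transduced with a retrovirus to express wild-type FAK again and kept under hygromycin, so that FAK, viral transduction and drug selection cannot be told apart in the comparison. The replicates are samples of lines from the same clone, so their spread is not a spread between independent clones. The Cre recombinase was driven by the promoter of a keratin gene, K14, in both lines alike.

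Keratins are the intermediate filament proteins of epithelia. A filament is built from pairs of a type I and a type II keratin, and the pair marks the state of the cell: Krt5 with Krt14 in the basal layer of stratified epithelia, and Krt8 with Krt18 in simple epithelia and in many carcinomas. Krt15 is a further type I keratin of basal and hair follicle stem cells, Krt7 and Krt19 are keratins of ducts and other simple epithelia, Krt17 and Krt16 are induced in wounded and diseased skin, and Krt13 belongs to the suprabasal layers of internal stratified epithelia and is known from skin papillomas and carcinomas. In the reference annotation Krt5, Krt7, Krt8 and Krt18 lie on chromosome 15 and the other members, all of type I, on chromosome 11. Krt18 is the type I gene that lies beside a type II partner, with 2 annotated genes starting between it and Krt8 and 0 of them protein coding.

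The promoters of Krt8, Krt18 and Krt7 are shown because Krt8 had the largest difference between the lines, Krt18 is its filament partner with an estimate of the opposite sign, and Krt7 is the other type II keratin of simple epithelia. Sequences are from RefSeq on build GRCm38.p6 and run 5′ to 3′ from 250 bases before to 20 bases after the annotated start, 270 bases in all, where the 20 bases after the start were added once the sequences had been seen. Capitals mark matches, on either strand, to TATAAA, the sequence of the TATA box, its variant ATAAAA, which can overlap it, the motif GGGCGG of the GC box, and TGANTCA, the AP-1 site. The windows are Krt8 at chr15:102004323-102004592 on the minus strand, Krt18 at chr15:102027966-102028235 on the plus strand and Krt7 at chr15:101412153-101412422 on the plus strand.
Krt8: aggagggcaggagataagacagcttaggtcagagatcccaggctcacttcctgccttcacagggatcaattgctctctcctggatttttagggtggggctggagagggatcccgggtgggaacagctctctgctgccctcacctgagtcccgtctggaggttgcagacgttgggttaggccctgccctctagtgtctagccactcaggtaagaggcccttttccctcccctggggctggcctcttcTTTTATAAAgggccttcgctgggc
Krt18: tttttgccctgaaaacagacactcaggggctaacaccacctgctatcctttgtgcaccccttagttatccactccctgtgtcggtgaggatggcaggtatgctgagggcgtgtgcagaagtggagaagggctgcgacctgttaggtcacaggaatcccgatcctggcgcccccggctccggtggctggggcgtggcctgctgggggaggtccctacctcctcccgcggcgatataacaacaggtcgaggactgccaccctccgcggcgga
Krt7: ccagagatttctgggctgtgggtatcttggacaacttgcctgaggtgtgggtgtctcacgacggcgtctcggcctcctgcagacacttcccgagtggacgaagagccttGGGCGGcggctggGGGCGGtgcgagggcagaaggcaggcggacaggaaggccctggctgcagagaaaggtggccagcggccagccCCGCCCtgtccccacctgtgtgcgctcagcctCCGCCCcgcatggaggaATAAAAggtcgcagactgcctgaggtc

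The Krt8 window held overlapping matches across its annotated start, to TATAAA on both strands and to ATAAAA on the reverse strand. These matches reach into the 20 bases added once the sequences had been seen. The Krt7 window held ATAAAA just before its start and 4 GC boxes. The Krt18 window held none of the 4 motifs. Among all 32851 promoter windows of this length, 12.9% held TATAAA, 17.6% ATAAAA, 34.1% GGGCGG and 7.23% TGANTCA. Entries were found for 6 of the 10 keratins, with 7 windows. The variant motif seen in the Krt8 and Krt7 windows was in 4 of these. The others were the Krt5 window and a Krt13 window, of keratins with negative estimates (-0.05 and -0.08). The Krt14 window held none of the 4 motifs, and the estimate of Krt14 was 0.02. AP-1 sites were found in the Krt13 windows only. Whether any motif went with the direction of change was not tested. The matches describe letters and are not tests of binding.

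The arrays give 1 log2 value per gene, which the authors' methods attribute to RMA (Robust Multi-array Average). Read as log2, a difference of 1 is a 2-fold difference. Whether plain RMA or its variant GC-RMA, which corrects background by probe sequence, was used is not settled by the sources used here, and it bears most on dim genes. The median over all genes was 5.90 to 5.97 on the 6 arrays, and the values of the whole table ran from 1.34 to 13.76. The values of the 9 keratins ran from 3.63 to 6.38, and 45 of the 54 lay below the median of their own array. Arrays have no read depth, and precision is limited by the 3 arrays of each line.

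Krt5 and Krt14, the keratin pair of basal keratinocytes, were not among the bright genes of either line. Markers of keratinocytes other than keratins were not analysed here. Averaged over the 6 arrays, Krt5 stood at the 48.1 percentile of all genes in signal and Krt14 at the 21.4 percentile, and the same order held on each array, at 47.3 to 49.1 for Krt5 and 19.4 to 22.8 for Krt14. Krt17 was the next lowest in position, at the 29.4 percentile. Krt19 (39.6), Krt8 (41.3), Krt18 (44.5), Krt7 (46.8) and Krt15 (47.0) lay closer to the middle, and Krt13, at 52.6, was the only one of the 9 with a mean position above it. A percentile places a probe signal on the range of the array and does not compare amounts of mRNA between genes, since probes differ in brightness. The table gives no detection calls, so whether a dim keratin was above background is not known.

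**Figure D1:**
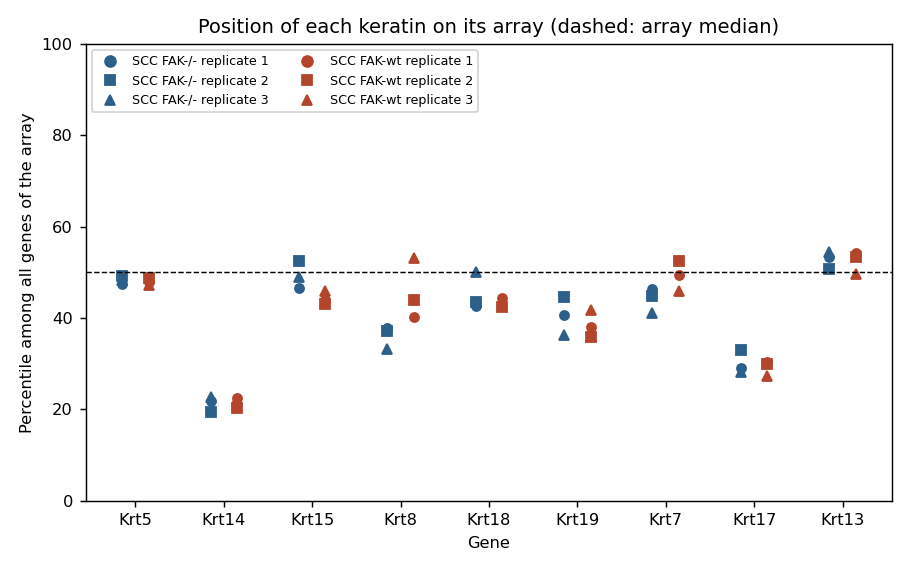
Percentile of each of the 9 keratins among all 17204 genes of the same array (y axis), for each gene (x axis) and array (blue, SCC FAK-/-; red, SCC FAK-wt; symbols, replicates). Krt14 lies near the 20 percentile on all 6 arrays, and 45 of the 54 points are below the dashed array median.

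Setting SCC FAK-wt cells against SCC FAK-/- cells asks which transcripts differ when FAK is present. None of the 9 keratins (0) passed an adjusted p under 0.05 in limma, where 1.92% of all genes did, and 0 passed an unadjusted p under 0.01, where 6.85% of all genes did. The study used a p under 0.01 and does not say whether it was adjusted. At an unadjusted p under 0.05 there were 2 keratins, Krt8 and Krt15 (22.2%), beside 15.5% of all genes. The same 2 were the keratins whose lines did not overlap (22.2%), beside 21.5% of all genes. By estimate 3 had a positive change (higher with FAK) and 6 a negative one. The median log2 fold change of the 9 was -0.07 against 0.02 over all genes, and the median size of the change was 0.16 against 0.14. In both respects the keratins were near the background of the table.

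**Figure D2:**
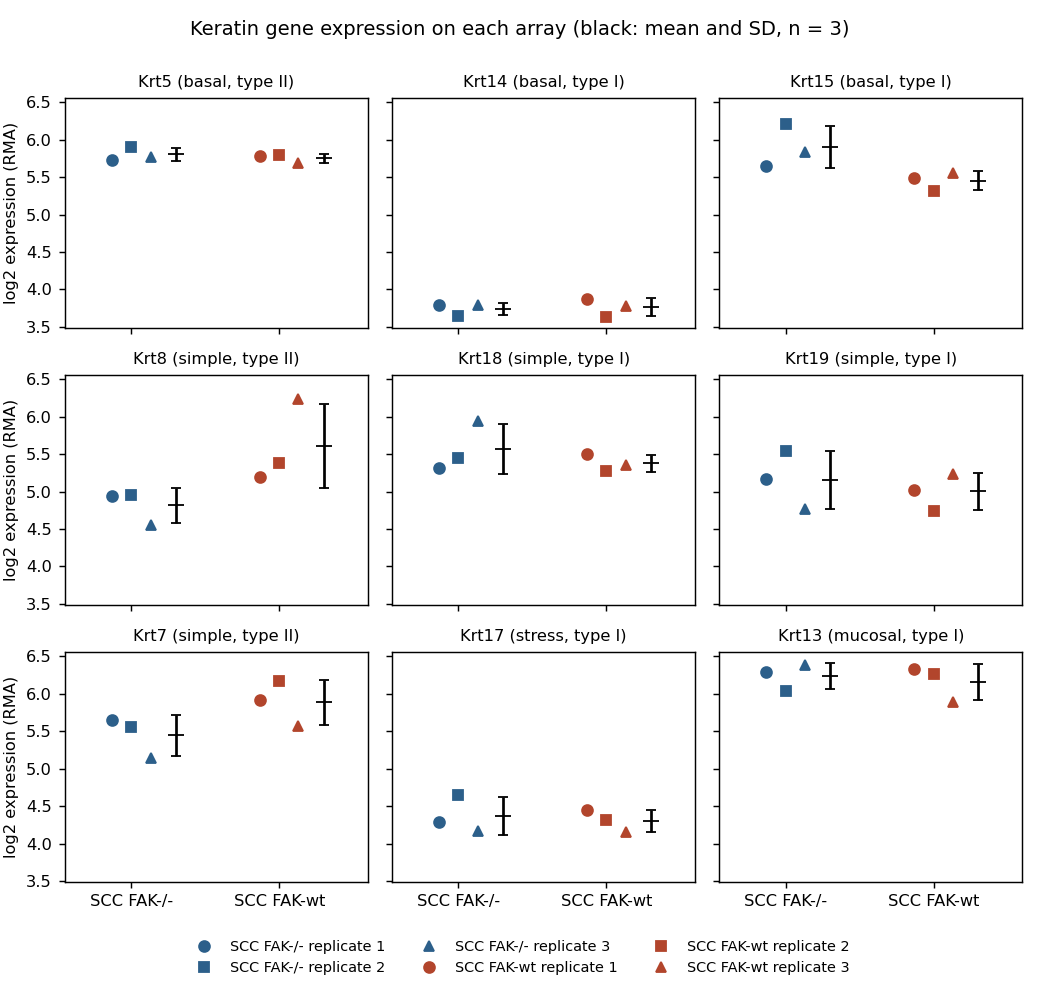
Log2 expression (y axis, RMA) of each of the 9 keratins on each array, with SCC FAK-/- at the left and SCC FAK-wt at the right of each panel; points are arrays and black bars are the mean with its SD (n = 3). The lines do not overlap for Krt8, higher in SCC FAK-wt, and Krt15, lower in SCC FAK-wt.

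Of the 9 keratins, the basal pair had the smallest replicate spreads and the smallest estimated changes in array signal. Whether the dim signal of Krt14 was above background is not known, so its small spread need not mean a precise measure of its mRNA. Krt5, the type II keratin of basal keratinocytes, read 5.78, 5.79 and 5.69 in SCC FAK-wt replicates 1 to 3 and 5.73, 5.90 and 5.77 in SCC FAK-/- replicates 1 to 3. The lines overlapped, and the replicate SD of 0.075 was at the 9.14 percentile of the table. The log2 fold change of Krt5 was -0.05 (standard error 0.099, 95% interval -0.28 to 0.18, limma adjusted p = 0.877), so that differences beyond 1.22-fold in either direction lie outside the interval. Without SCC FAK-/- replicate 2, the highest array, the log2 fold change of Krt5 was -7e-04.

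Krt14, its type I partner, read 3.87, 3.63 and 3.78 in SCC FAK-wt replicates 1 to 3 and 3.79, 3.64 and 3.79 in SCC FAK-/- replicates 1 to 3. Its log2 fold change was 0.02 (standard error 0.11, 95% interval -0.23 to 0.28, limma adjusted p = 0.954), within 1.21-fold in either direction. How the background correction affects a value this near the low end of the range was not tested.

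Krt15, the other type I keratin of basal cells, read 5.48, 5.32 and 5.56 in SCC FAK-wt replicates 1 to 3 and 5.65, 6.21 and 5.84 in SCC FAK-/- replicates 1 to 3. Every SCC FAK-wt value was below every SCC FAK-/- value, and the gap between the nearest arrays was small beside the spread among the SCC FAK-/- arrays, of which replicate 2 was the highest. The means were 5.45 ± 0.12 (SD, n = 3) and 5.90 ± 0.28 (SD, n = 3), and the log2 fold change was -0.45, a ratio of 0.734 (standard error 0.16, 95% interval -0.82 to -0.07). The difference had an unadjusted p of 0.0257 and an adjusted p of 0.236 in limma and was not called. Without SCC FAK-/- replicate 2 the log2 fold change was -0.29.

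The largest difference and the largest replicate spread among the 9 were both those of a simple-epithelial keratin. Krt8, the type II keratin of simple epithelia, read 5.19, 5.39 and 6.24 in SCC FAK-wt replicates 1 to 3 and 4.94, 4.95 and 4.55 in SCC FAK-/- replicates 1 to 3. All 3 SCC FAK-wt values were above all 3 SCC FAK-/- values, with replicate 3 standing highest in the one line and lowest in the other. The means were 5.61 ± 0.56 (SD, n = 3) and 4.81 ± 0.23 (SD, n = 3), and the log2 fold change was 0.79, a ratio of 1.73 (standard error 0.27, 95% interval 0.15 to 1.43).

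Only 2.91% of all genes had a larger change in size than Krt8, while its replicate SD of 0.43 was at the 94.0 percentile of the table. The difference had an unadjusted p of 0.0219 and an adjusted p of 0.221 in limma and was not called. Leaving out SCC FAK-wt replicate 3, the highest array, lowered the log2 fold change to 0.48, and over all 6 arrays left out in turn it ranged from 0.48 to 1.00.

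Krt18, the type I partner of Krt8, read 5.50, 5.28 and 5.36 in SCC FAK-wt replicates 1 to 3 and 5.32, 5.45 and 5.94 in SCC FAK-/- replicates 1 to 3. The lines overlapped, with SCC FAK-/- replicate 3 the highest of the 6. The log2 fold change was -0.19 (standard error 0.17, 95% interval -0.60 to 0.22, limma adjusted p = 0.691), so that differences beyond 1.51-fold lie outside the interval. Without that array the log2 fold change of Krt18 was -0.0029.

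Krt7, a type II keratin of ducts and glands, read 5.91, 6.17 and 5.57 in SCC FAK-wt replicates 1 to 3 and 5.64, 5.56 and 5.14 in SCC FAK-/- replicates 1 to 3. The lines overlapped through SCC FAK-wt replicate 3, which lay below SCC FAK-/- replicate 1. The log2 fold change was 0.44, a ratio of 1.36 (standard error 0.19, 95% interval -0.02 to 0.89), with an unadjusted p of 0.0578 and an adjusted p of 0.343 in limma. It was 0.28 without SCC FAK-/- replicate 3 and 0.60 without SCC FAK-wt replicate 3.

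Krt19, a small type I keratin that lacks most of the tail domain, read 5.02, 4.75 and 5.24 in SCC FAK-wt replicates 1 to 3 and 5.17, 5.54 and 4.77 in SCC FAK-/- replicates 1 to 3. The SCC FAK-wt values fell inside the range of the SCC FAK-/- values but for 1 array just below it. The log2 fold change was -0.16 (standard error 0.22, 95% interval -0.67 to 0.35, limma adjusted p = 0.809).

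**Figure D3:**
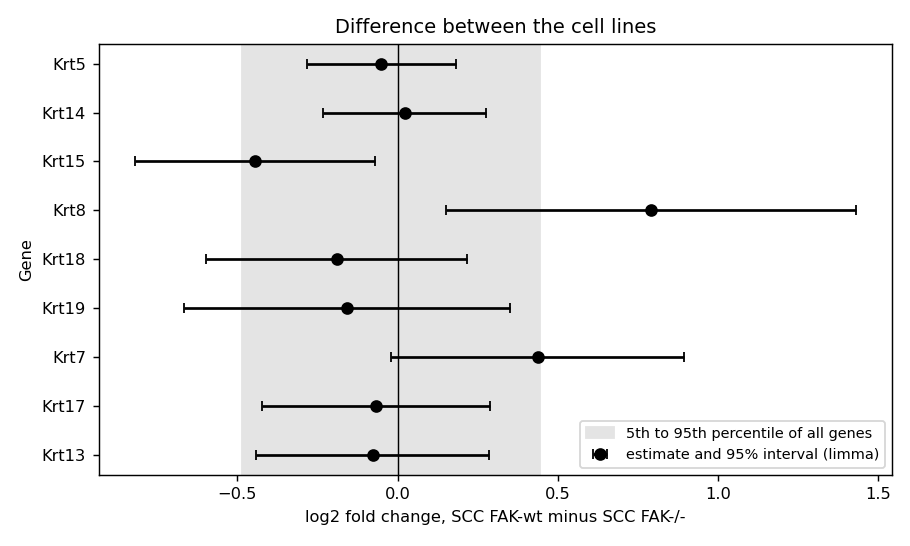
Log2 fold change, SCC FAK-wt minus SCC FAK-/- (x axis), of each keratin (y axis), with the limma estimate as a point and its 95% interval as a bar; the grey band runs from the 5th to the 95th percentile of all genes, -0.49 to 0.45. Of the 9 intervals 7 include 0, and those of Krt8 and Krt15 do not.

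Krt17, the stress keratin, read 4.45, 4.31 and 4.15 in SCC FAK-wt replicates 1 to 3 and 4.29, 4.65 and 4.17 in SCC FAK-/- replicates 1 to 3, with the lines interleaved. Its log2 fold change was -0.07 (standard error 0.15, 95% interval -0.42 to 0.29, limma adjusted p = 0.894). Krt13 read 6.33, 6.26 and 5.89 in SCC FAK-wt replicates 1 to 3 and 6.29, 6.04 and 6.38 in SCC FAK-/- replicates 1 to 3, also interleaved, with a log2 fold change of -0.08 (standard error 0.15, 95% interval -0.44 to 0.29, limma adjusted p = 0.878). Differences beyond 1.34-fold lay outside the interval for Krt17, and beyond 1.36-fold for Krt13.

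The precision thus differed between the members. For 4 of the 9, Krt5, Krt14, Krt17 and Krt13, the 95% interval lay inside 1.5-fold in either direction, and for 8 it lay inside 2-fold, all but Krt8. The median standard error of the 9 was 0.16, against 0.13 over all genes. These intervals limit the size of a difference in array signal and do not show that the lines were equal. Krt14 and Krt17 were dim, at the 21.4 and 29.4 percentile, and whether their signal was above background is not known.

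**Figure D4:**
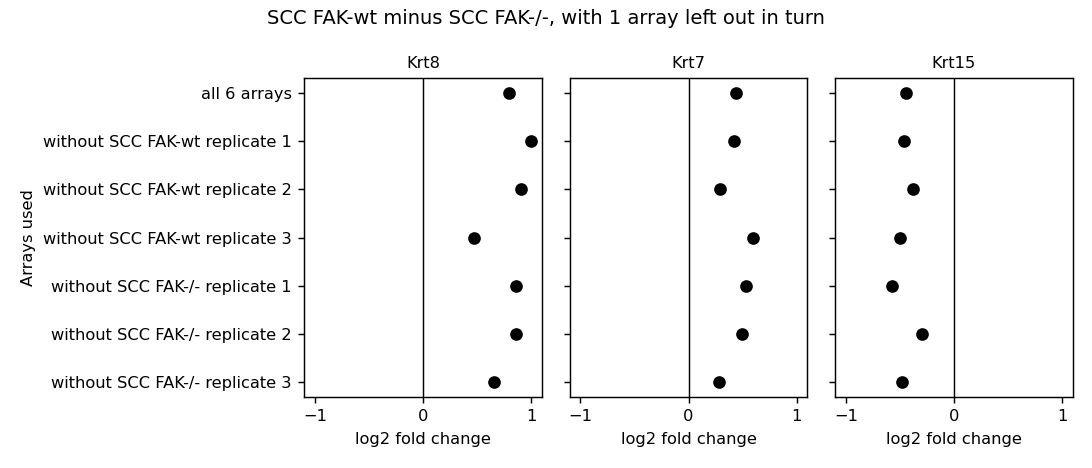
Log2 fold change, SCC FAK-wt minus SCC FAK-/- (x axis), of Krt8, Krt7 and Krt15 from all 6 arrays and with 1 array left out in turn (y axis). The estimate of Krt8 drops to 0.48 without SCC FAK-wt replicate 3, and that of Krt15 moves to -0.29 without SCC FAK-/- replicate 2, with no change of sign in any of the 3 genes.

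The keratins of a pair can be compared within an array, as the log2 difference of their values, which asks whether the partners changed unequally between the lines. For Krt5 minus Krt14 the difference between the lines was -0.07 (standard error 0.13), and the arrays overlapped (exact permutation test, two-sided, p = 0.5). The smallest p that 3 against 3 arrays allow is 0.1, so none of the 4 pairs tested could pass 0.05.

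Krt8 minus Krt18 was -0.31, 0.11 and 0.88 in SCC FAK-wt replicates 1 to 3 and -0.38, -0.49 and -1.40 in SCC FAK-/- replicates 1 to 3. Every SCC FAK-wt array was above every SCC FAK-/- array, though SCC FAK-wt replicate 1 and SCC FAK-/- replicate 1 lay close together. The means differed by 0.98 (standard error 0.47), a 1.98-fold change of the ratio, with p = 0.1, the smallest possible, and 0.2 after Benjamini-Hochberg adjustment over the 4 pairs (exact permutation test). Without SCC FAK-wt replicate 3 the difference was 0.66. The value joins the higher estimate of Krt8 with the lower one of Krt18.

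Krt5 minus Krt15 was 0.30, 0.48 and 0.13 in SCC FAK-wt replicates 1 to 3 and 0.08, -0.31 and -0.06 in SCC FAK-/- replicates 1 to 3, again without overlap. The difference of 0.40 (standard error 0.15; exact permutation p = 0.1, adjusted 0.2) came with a nearly level Krt5 and lower Krt15 values in SCC FAK-wt. Krt7 minus Krt19 differed by 0.60 (standard error 0.35; exact permutation p = 0.3, adjusted 0.4), and its arrays overlapped. Without SCC FAK-wt replicate 2 that difference was 0.33.

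**Figure D5:**
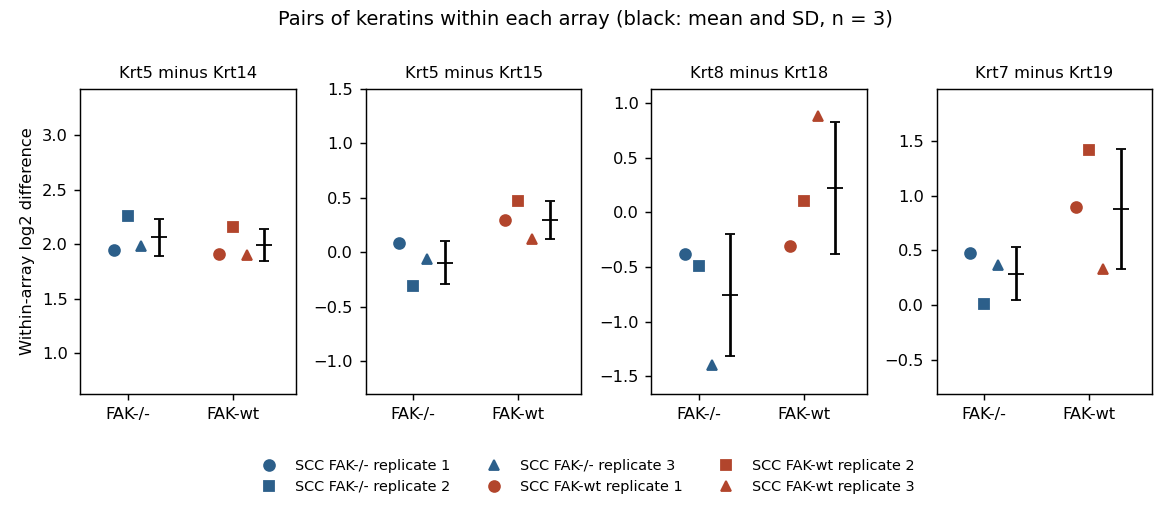
Within-array log2 difference of 4 pairs of keratins (y axis, with the same span in every panel), for SCC FAK-/- and SCC FAK-wt arrays (points), with the mean and SD in black (n = 3). Krt8 minus Krt18 and Krt5 minus Krt15 are higher on all SCC FAK-wt arrays, and Krt5 minus Krt14 overlaps between the lines.

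The array farthest from its line's mean differed between the keratins, and no such count was made over all genes. Some cases were near ties. Krt7 deviated by -0.314 on SCC FAK-wt replicate 3 and by -0.308 on SCC FAK-/- replicate 3. Krt19 deviated by -0.393 on SCC FAK-/- replicate 3 and by 0.386 on SCC FAK-/- replicate 2. SCC FAK-wt replicate 3 was the farthest from its mean for 3 keratins (Krt8, above it, and Krt7 and Krt13, below it), SCC FAK-/- replicate 2 for 3 (Krt5, Krt15 and Krt17, all above it), SCC FAK-/- replicate 3 for 2 (Krt18, above it, and Krt19, below it) and SCC FAK-wt replicate 2 for 1, Krt14, below it. Replicate 1 of neither line was the farthest for any keratin (0 of 9). Among the keratins for which SCC FAK-wt replicate 3 or SCC FAK-/- replicate 3 was the farthest array, the directions were thus mixed.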

How the data were processed

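RNA of 3 SCC FAK-wt and 3 SCC FAK-/- samples was amplified, labelled with biotin and hybridized to Affymetrix mouse genome arrays. The authors summarised the probes to Ensembl genes and normalized the arrays with RMA in the affy package, and deposited 1 value per gene and array, read here as log2 from its range. The package version, how probes were mapped and whether the background correction was that of RMA or GC-RMA, which bears on dim genes, are not given in the sources used here, and related keratins can share probe sequence. Samples were grouped by their titles, and no pair of arrays was identical (0). All 17204 genes were fitted in R 4.3.3 with limma 3.58.1 (functions lmFit and eBayes, cell line as the only term, two-sided, Benjamini-Hochberg over all genes, adjusted p under 0.05), after a check on simulated data. The members and lists were chosen with earlier results of these data known. Intervals are limma's 95% intervals. The reference table paired 0 identifiers with symbols, so the member names are those given with their identifiers. FAK's own gene, further keratins, linkers, other intermediate filament genes, keratin regulators and markers of other cell types were therefore not analysed here. The planned search for the genes most like a called keratin had no starting gene, as no keratin (0) was called. All members were named. Alternatives were other variance moderation, scalings, array weights, a filter on dim genes, the replicate number as a block and each array left out.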

Additional observations from a re-analysis of the deposited data

How the results depend on the processing

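No keratin (0) passed an adjusted p under 0.05 in any of the 14 alternatives, where the lowest adjusted p was 0.170, for Krt8 when the dimmest genes were left out, which removed Krt14 and Krt17. At an unadjusted p under 0.05 the count of 2 became 0 without moderation of the variances, 2 or 3 under the other fits of all arrays, and 1 to 3 with an array left out. At an unadjusted p under 0.01 it was 0 to 1 with an array left out, the 1 being Krt8 without SCC FAK-wt replicate 1 (limma adjusted p = 0.172). In the replicate block fit, 3 keratins had an unadjusted p under 0.05, Krt7 among them, and 0 an adjusted one. Deviations of same-numbered arrays correlated across genes at -0.0338 to 0.028, near no correlation over the whole table. The titles give only the replicate number, and whether same-numbered samples shared a culture or processing batch was not tested. Krt8, Krt7 and Krt15 kept their sign throughout. Krt18 and Krt5 stayed negative but came to -0.0029 and -7e-04 without SCC FAK-/- replicates 3 and 2. With an array left out the sign turned for Krt14 (-0.033 to 0.088), Krt17 (-0.17 to 0.072, with 0.0081 without SCC FAK-wt replicate 3), Krt13 (-0.18 to 0.059), Krt19 (-0.35 to 0.035) and Krt5 minus Krt14 (-0.16 to 0.024). The other pairs kept theirs. The alternatives planned for the other keratins, linkers, other intermediate filament genes and keratin regulators, and for Krt17 minus Krt16, were not run, as these genes could not be matched to identifiers with values here.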
